A study of Homo sapiens with 30 samples.

Results

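RING1-only regions are stretches of the genome where the RING1 antibody gave a peak in 1 wild-type list and no RNF2 peak, and no other RING1 peak, was called in the lists analysed. They were chosen by presence in the authors' peak lists: overlapping or touching peaks of 4 lists were merged, 2 made with an antibody against RING1 and 2 with an antibody against RNF2, and regions held by the longer RING1 list alone were kept. This gave 2238 regions, 11.3% of 19856 merged regions and 17.4% of the 12891 peaks of that RING1 list, and each region is exactly 1 peak. The data are CUT&RUN libraries, in which a nuclease tethered to an antibody releases the DNA around the bound protein, from wild-type neural progenitor cells grown as a monolayer in N2/B27/FGF medium. The cells derive from the established embryonic stem cell line H9 (human), and the wild type is the reference of a CRISPR-edited RING1 and RNF2 allelic series of 30 samples. The labels name no clone or separate culture for the replicates, and the edited genotypes, IgG and H2AK119ub1 libraries were not analysed here. The lists come as 2 pairs, here set A (the longer lists) and set B, whose file numbers the labels tie to no replicate. The RNF2 lists hold 16263 (A) and 5901 (B) peaks, and the RING1 list of set B holds 659. Fold, −log10 q and width of the regions come from 1 list, so they have no replicate error. No RNA was analysed here, so the markers of neural progenitors could not be checked.

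RING1 and RNF2 (RING1A and RING1B in older usage) are alternative catalytic subunits of Polycomb repressive complex 1, which attaches ubiquitin to histone H2A and helps keep developmental genes silent. Each complex holds 1 of the paralogs with a PCGF partner. Canonical complexes read a histone H3 mark through CBX proteins, whereas variant complexes with RYBP or YAF2 reach chromatin by other routes, such as the CpG-binding subunit KDM2B. CpG-rich promoters are therefore the best known landing sites of both paralogs.

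Promoter sequences show the kind of DNA under the RING1-only regions that lie at genes. Sequence was at hand only for windows from 250 bases before to 50 after gene starts (RefSeq, GRCh38.p14, the assembly behind hg38), so regions away from starts are described by position alone. The first 5 windows are those of protein-coding genes that lie wholly inside a RING1-only region with the highest fold enrichments, and CDH18 is shown because its region lies farthest from any RNF2 peak. Each runs 5′ to 3′ on the gene's strand, with every CpG in capitals.
NUCB1: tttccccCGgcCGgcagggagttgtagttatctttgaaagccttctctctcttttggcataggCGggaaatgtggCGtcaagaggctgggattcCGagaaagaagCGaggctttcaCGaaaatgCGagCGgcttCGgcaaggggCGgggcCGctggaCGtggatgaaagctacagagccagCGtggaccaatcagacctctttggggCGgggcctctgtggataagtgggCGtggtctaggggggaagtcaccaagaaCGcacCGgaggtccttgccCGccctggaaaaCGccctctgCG
CNTNAP5: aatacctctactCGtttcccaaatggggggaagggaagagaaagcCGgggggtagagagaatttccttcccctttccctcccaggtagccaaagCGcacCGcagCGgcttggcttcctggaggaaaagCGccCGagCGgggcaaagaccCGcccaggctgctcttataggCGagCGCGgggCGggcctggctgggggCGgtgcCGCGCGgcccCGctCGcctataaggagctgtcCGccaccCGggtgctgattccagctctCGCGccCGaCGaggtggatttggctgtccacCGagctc
RABEPK: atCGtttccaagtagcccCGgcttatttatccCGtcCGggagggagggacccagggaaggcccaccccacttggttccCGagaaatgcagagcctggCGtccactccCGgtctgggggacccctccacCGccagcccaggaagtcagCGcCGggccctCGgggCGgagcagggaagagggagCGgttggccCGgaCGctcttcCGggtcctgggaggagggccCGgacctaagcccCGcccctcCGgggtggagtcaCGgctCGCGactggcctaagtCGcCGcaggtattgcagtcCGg
TGOLN2: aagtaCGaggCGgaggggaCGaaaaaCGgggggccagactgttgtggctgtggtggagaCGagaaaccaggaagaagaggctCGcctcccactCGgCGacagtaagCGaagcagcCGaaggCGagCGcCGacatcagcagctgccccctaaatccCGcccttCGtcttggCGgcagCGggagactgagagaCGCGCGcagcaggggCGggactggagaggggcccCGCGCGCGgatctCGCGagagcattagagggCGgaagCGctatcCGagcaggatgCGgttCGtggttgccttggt
RGMA: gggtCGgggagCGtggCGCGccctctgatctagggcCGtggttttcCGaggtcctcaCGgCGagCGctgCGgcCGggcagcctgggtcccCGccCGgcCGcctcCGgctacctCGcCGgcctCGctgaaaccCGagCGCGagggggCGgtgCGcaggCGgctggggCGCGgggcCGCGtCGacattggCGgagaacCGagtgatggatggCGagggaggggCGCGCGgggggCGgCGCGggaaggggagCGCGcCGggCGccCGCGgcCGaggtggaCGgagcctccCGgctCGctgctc
CDH18: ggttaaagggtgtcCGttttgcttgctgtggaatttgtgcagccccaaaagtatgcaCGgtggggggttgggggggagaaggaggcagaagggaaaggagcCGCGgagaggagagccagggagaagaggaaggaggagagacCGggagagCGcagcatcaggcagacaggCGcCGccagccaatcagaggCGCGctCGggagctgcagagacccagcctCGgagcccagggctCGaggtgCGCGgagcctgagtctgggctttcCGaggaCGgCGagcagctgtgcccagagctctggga

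These windows lie at chr19:48900062-48900361 (plus strand, NUCB1, a calcium-binding protein of the Golgi), chr2:124025037-124025336 (plus strand, CNTNAP5, a neuronal adhesion protein), chr9:125200292-125200591 (plus strand, RABEPK), chr2:85327940-85328239 (minus strand, TGOLN2, a trans-Golgi protein), chr15:93073107-93073406 (minus strand, RGMA, an axon guidance molecule) and chr5:19988151-19988450 (minus strand, CDH18, a cadherin). They hold 21, 26, 25, 32, 48 and 18 CpGs in that order, and their GC content runs from 59.7% for NUCB1 to 78.7% for RGMA. The CDH18 window shares 113 of its 300 bases with its region. All 6 thus hold more CpGs than the median promoter window of the reference, which has 14. That median includes windows of long noncoding RNA genes (36.9% of all), whereas all 6 are of protein-coding genes.

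The same held across promoters as a group. RING1-only regions overlapped 461 of 34943 distinct promoter windows (1.32%), 20.4% of them at long noncoding RNA genes. The long noncoding RNA share was 36.9% of all windows and 49.7% of those with no peak. It was 17.1% under both antibodies and 16.9% under RNF2-only regions of set A. The CpG contrasts with all windows and with uncalled ones were not matched for gene type. The median of the RING1-only windows was 25 CpGs (quartiles 17 and 34) and 65.7% GC. Windows met by regions of both antibodies in set A alone had a median of 29.0 CpGs (quartiles 21.0 and 36.0, n = 5888), and windows under RNF2-only regions of set A had 27.0 (n = 2614). The 20632 windows with no peak in any list had a median of 5.00 CpGs (quartiles 2 and 12) and 50.3% GC. Fewer than 5 CpGs were found in 13 RING1-only windows (2.82%), against 29.7% of all windows and 49.3% of those with no peak. RING1-only promoters thus resembled other called promoters and not the uncalled ones, with a somewhat larger low-CpG end, as the plot of CpG content shows. No test over windows was made, since neighbouring windows and alternative starts of a gene are not independent.

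**Figure D1:**
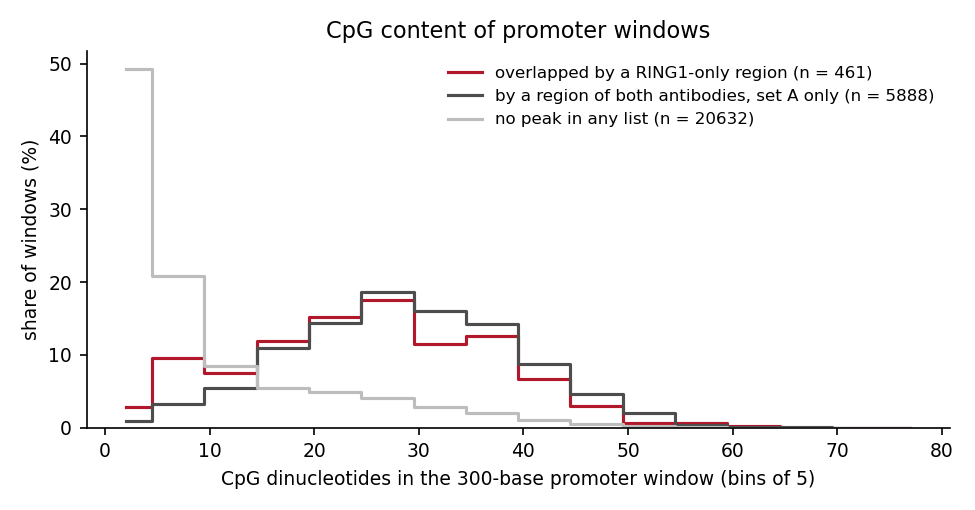
CpG dinucleotides per 300-base promoter window (horizontal axis, bins of 5) against the share of windows in percent, for windows overlapped by a RING1-only region, by a region of both antibodies in set A only, and by no peak. The first 2 curves peak at 25 to 29 CpGs, where 17.6% and 18.6% of their windows lie, whereas 49.3% of uncalled windows lie below 5.

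The share of promoter windows under a RING1-only region rose with CpG count mainly at the low end. It was 0.125% for windows with 0 to 4 CpGs, 1.05% with 5 to 14, 2.12% with 15 to 24, 2.15% with 25 to 34 and 2.23% with 35 to 77. For regions of both antibodies the same shares were 0.520%, 6.95%, 25.4%, 32.8% and 36.0%. For RNF2-only regions of set A they were 0.597%, 4.47%, 11.9%, 14.3% and 12.7%. The RING1-only share therefore levelled off from 15 CpGs upward, while that of both antibodies went on rising. The RNF2-only share did not go on rising either and was lower in the top class than in the one below. Because the rule removes RING1 peaks that meet RNF2, the shares of the classes are not independent.

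Short motifs of factors known from CpG-rich promoters or from PRC1.6, the variant complex with MGA, MAX and E2F6, were counted on both strands. The SP/KLF motif GGGCGG was in 67.0% of RING1-only windows, 76.6% of those under both antibodies and 44.9% of all windows. The E-box CACGTG, bound by MAX and MGA among others, was in 7.59%, 11.4% and 7.23%. The T-box motif TCACACCT was in 1.52% (7 windows), 0.662% and 0.982%, and the E2F motifs GGCGGGAA and TTTCGCGC were in 4.56% and 0.434% of RING1-only windows, 5.89% and 1.24% of those under both antibodies and 3.15% and 0.507% of all. In the same order (RING1-only, both antibodies, all), YY1's AAGATGGC was in 4.34%, 5.10% and 2.89%, NRF1's GCGCATGC in 3.90%, 5.77% and 3.02%, and CREB's TGACGTCA in 1.30%, 3.07% and 1.84%. CCAAT, the NFY motif, was in 33.8%, 35.6% and 34.6%, and TATAAA was in 4.34%, 4.30% and 11.6%. Of the 10 motifs, the T-box motif and TATAAA had a share in RING1-only windows above that under both antibodies, and the other 8 had a lower one. Some of these overlap in sequence (GGGCGG and GGCGGGAA share bases where they abut), and a match is a description of letters and not of binding.

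RING1-only regions lay mostly towards the weak and narrow end of the RING1 list. Fold enrichment is the authors' own value for each peak relative to its background. Only called peaks could enter, so it is a description with no test. It ran from 2.96 to 6.80 with a median of 3.56 (quartiles 3.38 and 3.78), against a median of 4.13 (quartiles 3.70 and 4.79, highest 14.2) for the other 10653 RING1 peaks of set A. The median −log10 q was 1.67 in RING1-only regions and 2.65 in the others. Only 4 RING1-only regions (0.179%) had a −log10 q of 5 or more, where 11.9% of all peaks of the list had, and 561 (25.1%) had 2 or more, where 63.6% of the list had. Median width was 341 bp (quartiles 265 and 542, range 224 to 2079) against 812 bp in the other peaks, and 856 regions (38.2%) were narrower than 300 bp against 7.55% of the others. Across the 2238 regions fold and width were nearly unrelated (Spearman's rho −0.0482, all from 1 list), and rho was 0.345 across the other peaks. The others span a wider range, with fold up to 14.2 against 6.80 and width up to 77536 against 2079 bp. A narrower range can lower rho, so the 2 values are not on an equal footing.

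**Figure D2:**
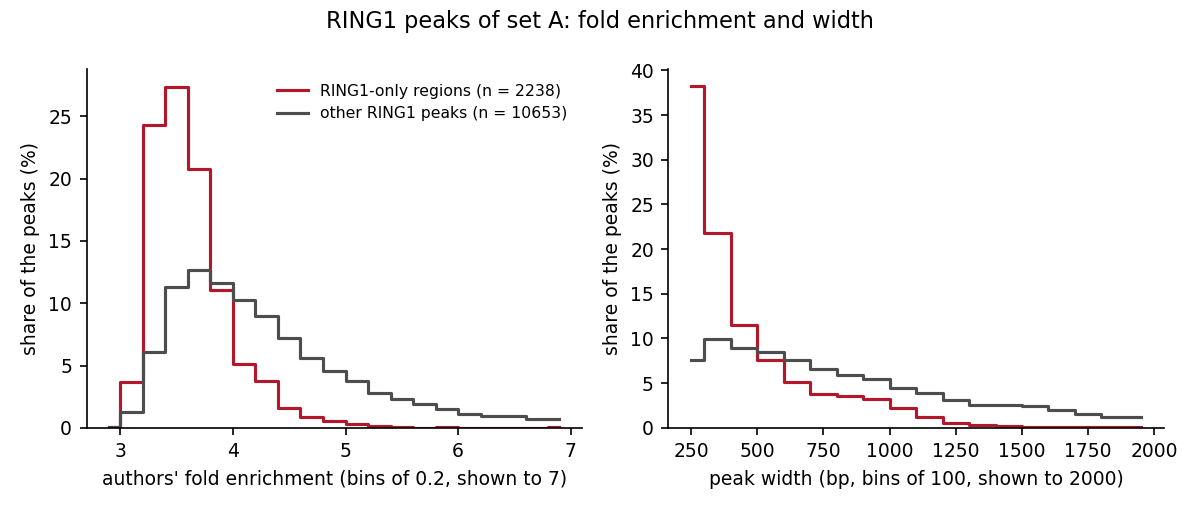
Left, authors' fold enrichment (bins of 0.2), and right, peak width in bp (bins of 100), each against the share of peaks in percent, for RING1-only regions and the other RING1 peaks of set A. RING1-only regions crowd between fold 3.2 and 3.8 and below 400 bp, while the other peaks extend to higher folds and widths.

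Among RING1 peaks divided by fold into 5 classes of equal size, the share that was RING1-only fell from 40.2% in the lowest class (fold 2.94 to 3.53) to 26.8%, 13.4%, 5.51% and 0.969% (25 peaks) in the classes above. Ranked by width, it fell from 46.4% among peaks of 224 to 354 bp to 0.504% (13 peaks) among those of 1451 bp or more. RING1-only regions were therefore rare among the strong and the wide RING1 peaks of this list. A wider peak has more room to meet an RNF2 peak, so the fall with width is partly built into the rule. The sources used here state no read depth, and a region without an RNF2 peak is therefore not shown to lack RNF2.

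RING1-only regions lay away from gene starts more often than regions of both antibodies or of RNF2 alone did. Within 2 kb of a protein-coding start were 656 regions (29.3%), against 57.0% of all merged regions, 72.7% of the 6109 regions of both antibodies in set A only and 42.3% of the 5848 RNF2-only regions of set A. A start lay inside 268 RING1-only regions (12%), against 47.3% of all merged regions, 65.6% for both antibodies and 28.8% for RNF2 alone. Another 813 (36.3%) lay elsewhere in a protein-coding gene and 769 (34.4%) outside these genes. A long noncoding RNA start and no protein-coding one lay within 2 kb of 128 regions (5.72%). That last share was 5.73% for both antibodies and 5.75% for RNF2 alone. Gene starts were those of RefSeq with their strand for 15842 genes; for 4195 genes, among them all of chromosome 8, no strand was at hand and both gene ends were taken. RNF2 of either set had a peak within 2 kb of the start of 57.3% of protein-coding genes. The rule removes any region that meets RNF2, so the lower share at starts partly follows from the rule. These contrasts between classes were not tested, because regions of 1 list are not replicates. The share depends on the peaks admitted: with a −log10 q of 5 or more required in all 4 lists, which removes RNF2 peaks too, 82.7% of 214 regions lay at starts, and 4 of these are among the 2238. With the lists of set B alone it was 21.0% of 62.

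**Figure D3:**
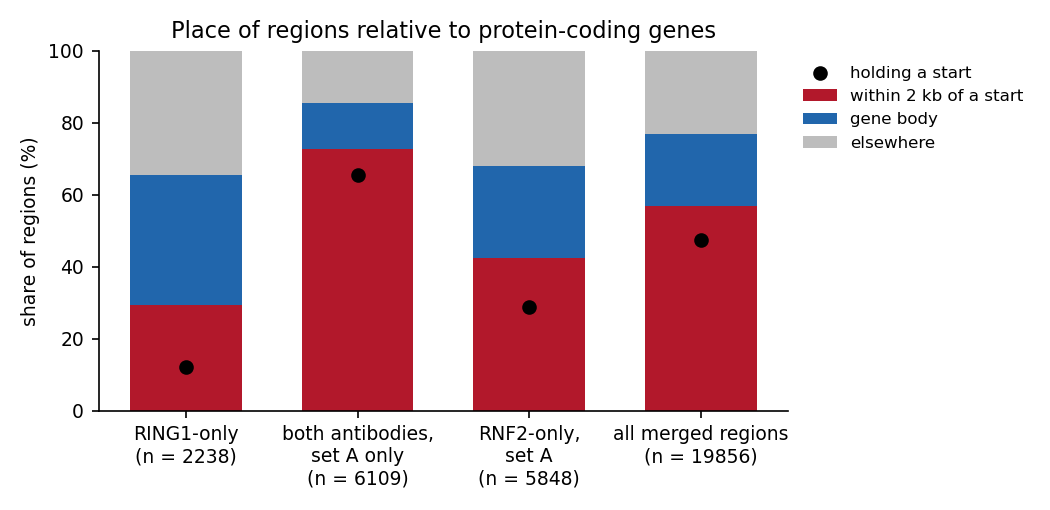
Share of regions in percent (stacked bars) within 2 kb of a protein-coding start, elsewhere in a protein-coding gene, and outside, for 4 classes of merged regions, with black points for the share holding a start. RING1-only regions have the lowest share at starts (29.3%) and the lowest share holding one (12%).

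Narrow peaks meet fewer starts, so the shares were also read among RING1 peaks of similar width. Among peaks of 224 to 354 bp, 7.12% of 1193 RING1-only regions held a start and 32.0% of the 1379 others did, and 24.8% against 67.7% lay within 2 kb of one. Among peaks of 567 to 872 bp the shares holding a start were 19.9% and 60.3%, and among those of 873 to 1450 bp 18.6% and 63.2%. Within the lowest fold class they were 9.07% and 44.0%, and within the highest 24% (of 25 regions) and 68.1%. The lower share at starts was thus seen in each of the 5 width classes and each of the 5 fold classes. The rule removes RING1 peaks that meet RNF2 in every class, so the classes are no separate support for it.

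At the starts themselves RING1-only regions sat beside the start more often than on it, and regions of both antibodies mostly on it. Of 511 regions within 2 kb of a start of known strand, 218 (42.7%) held the start, 142 (27.8%) lay upstream and 151 (29.5%) downstream. Of 3737 regions of both antibodies, 91.4% held the start, 4.52% lay upstream and 4.04% downstream. Regions of both antibodies are merged from peaks of 2 lists and are wider (median 1159 against 341 bp over each class). They therefore cover a start more easily, and width was not accounted for here. The centres of RING1-only regions had a median offset of 14.5 bp downstream (quartiles −252 and 299 bp), against −8.00 bp (quartiles −219 and 214 bp), so both classes centred near the start. Of all 2238 RING1-only regions, a further 80 lay within 2 kb of the far end of a gene of known strand and of no start. This count was not made for the other classes.

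**Figure D4:**
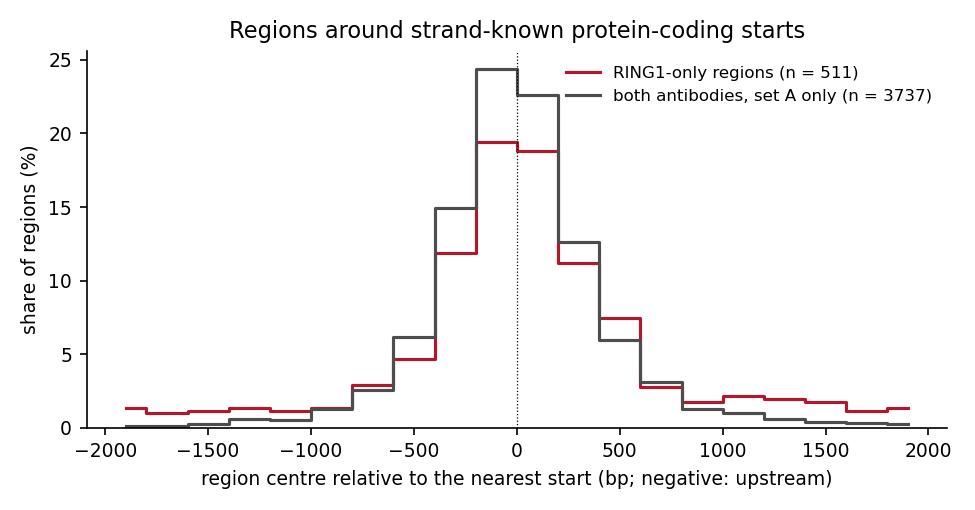
Position of the region centre relative to the nearest protein-coding start of known strand (bp, negative upstream, bins of 200) against the share of regions in percent. Both classes centre on the start, and RING1-only regions have longer tails beyond 1 kb on both sides.

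The distance to RNF2 is fixed by the rule only in that it cannot be 0, and it spread widely. The nearest RNF2 peak of either set lay a median of 22.6 kb away (quartiles 5.21 and 69.4 kb, range 1 bp to 2770 kb). It was within 1 kb for 259 regions (11.6%), within 5 kb for 552 (24.7%) and beyond 100 kb for 394 (17.6%). Of the 552, 75 had RNF2 within 5 kb on both sides and 477 on 1 side. In 526 regions the RNF2 peak within 5 kb was one of set A and in 185 one of set B, the shorter list. For comparison, RNF2-only regions of set A lay a median of 40.7 kb from the nearest RING1 peak, with 3.39% within 1 kb and 17.3% within 5 kb. The RING1 lists hold fewer peaks (12891 and 659) than the RNF2 lists (16263 and 5901). A shorter list gives longer distances by itself, so the 2 medians are not on an equal footing.

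**Figure D5:**
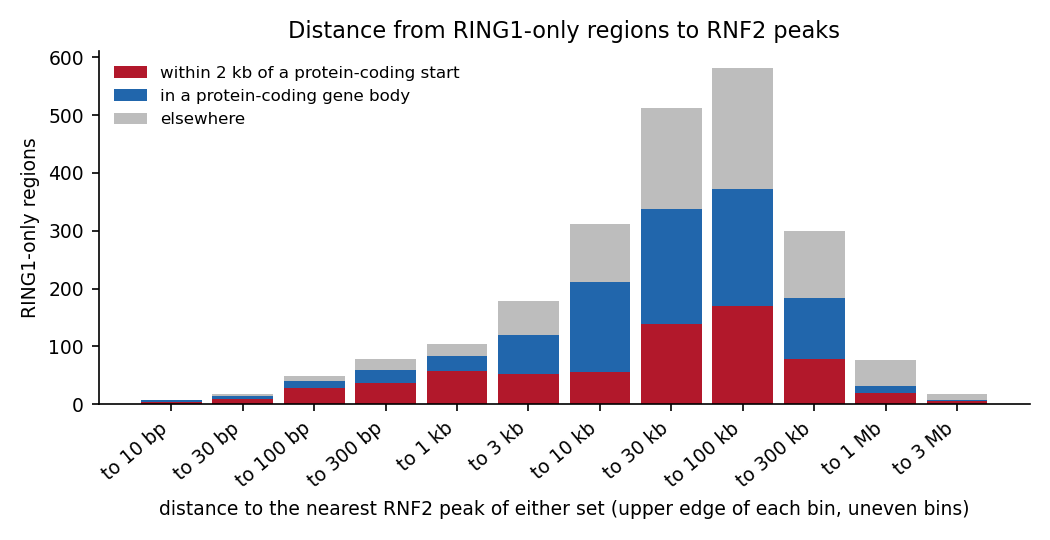
Number of RING1-only regions by distance to the nearest RNF2 peak of either set (horizontal axis, uneven bins named by their upper edge), coloured by place relative to protein-coding genes. The fullest bins, with 513 and 582 regions, reach from 10 kb to 100 kb, and regions at gene starts form the largest colour in the bins up to 1 kb.

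Regions within 1 kb of RNF2 lay at gene starts more often than those farther off. Within 1 kb of an RNF2 peak, 138 of 259 regions (53.3%) lay within 2 kb of a start, though only 33 (12.7%) held it. From 1 to 5 kb away the share at starts was 23.9%, from 5 to 20 kb 22.7%, from 20 to 100 kb 29.4% and beyond 100 kb 25.9%. RNF2 itself is often at starts: 42.3% of RNF2-only regions of set A and 72.7% of regions of both antibodies lay within 2 kb. A region within 1 kb of RNF2 thus often falls near a start by position alone, and this contrast is no separate result. The share holding a start was lowest at 1 to 5 kb (4.78%) and highest at 20 to 100 kb (15.4%) and beyond (14.2%). Fold enrichment hardly moved along this axis, with medians of 3.52, 3.49, 3.56, 3.58 and 3.59, and median width stayed between 326 and 392 bp. Regions next to RNF2 and far from it thus had similar medians.

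The regions just inside and just outside the rule show how fine its edge is. The nearest 5 members lay 1 to 5 bp from an RNF2 peak: in XKR6 (fold 4.24, 1 bp), at DIPK1C (3.62, 3 bp), at SELENOM (3.76, 3 bp), near CLIC4 (4.09, 5 bp) and at NOVA1, a neuronal splicing factor gene (3.15, 5 bp). The 5 RING1 peaks kept out by the smallest overlap, 1 to 4 bp, were nearest to FITM2 (fold 3.46), RGS12 (3.42), SLC35F1 (3.37), OR1F1 (3.5) and FBLN1 (3.57). In all, 116 RING1 peaks overlapped RNF2 by less than 100 bp and 75 members lay within 100 bp of it.

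Most RING1-only regions had no other RING1 peak within 5 kb, but the same distances were not computed for the other RING1 peaks. The nearest other RING1 peak of set A lay a median of 37.9 kb away, and 331 regions (14.8%) had one within 5 kb. Another RING1-only region lay within 5 kb of only 52, and the median distance between them was 233 kb. RING1 peaks of set B, a list of only 659 peaks and hence sparse, came within 5 kb of 9 regions, at a median distance of 2665 kb. Of the 24 regions held by RING1 of set B alone, 1 lay within 5 kb of a member. The authors' consolidated file holds 4255 regions and overlaps 4239 of the 4240 merged regions with RNF2 in both sets. It overlapped 0 RING1-only regions, and 167 of them lay within 5 kb of it. RING1-only regions hold no RNF2 peak by the rule, so this lack of overlap was largely fixed in advance and is no result.

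The regions were spread over the chromosomes. RING1-only regions were 14.3% (chromosome 4) to 22.4% (chromosome 22) of the RING1 peaks of set A on each chromosome. They numbered 230 on chromosome 1, 149 on chromosome 19 and 66 on X (21.7% of its RING1 peaks), while Y had no RING1 peak of set A. Median fold by chromosome lay between 3.5 and 3.66. The share at starts varied more, from 4.76% of the 21 regions on chromosome 21 to 40.3% of the 67 on chromosome 22.

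Protein-coding genes with a RING1-only region at the start numbered 711, which is 3.55% of 20037, and 60 regions lay at starts of 2 or more genes. RNF2 of either set had a peak within 2 kb of the start of 57.3% of all genes and of 267 (37.6%) of these 711. The other 444 had no RNF2 peak in the window. Where the start itself lay inside a RING1-only region (282 genes, 1.41%), an RNF2 peak was within 2 kb at 58 and none was called in the window at 224. The low share with RNF2 partly follows from the rule, which removes any region that meets RNF2.

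The strongest RING1-only region, fold 6.80 (−log10 q 7.55), lay on chromosome 1 from 206203014 to 206203274, 175 bp from the nearest FAM72A start and 267 bp from a start of SRGAP2. SRGAP2 is a regulator of neuronal migration and spine maturation, and both genes have near-identical copies elsewhere on the chromosome, so reads of the copies may not be told apart. The copy pair FAM72B and SRGAP2C had a RING1 peak of fold 4.49 and an RNF2 peak of fold 5.94 in set A, and FAM72C, FAM72D and SRGAP2B had none. The part of the copies in this result was not tested.

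JAM3, a junctional adhesion molecule gene, had a region of 792 bp (chromosome 11, 134068278 to 134069069) 3 bp from its start with fold 5.52, and the nearest RNF2 peak lay 30.5 kb off. ADORA1, the adenosine A1 receptor gene, had fold 5.34 at 351 bp from a start and RNF2 101 kb off. GRIN3B, an NMDA receptor subunit gene, had 5.06 at 1033 bp, and DSCAML1, a neuronal adhesion gene, had 5.05 at 100 bp. CNTNAP5, whose promoter is printed above, had 4.94 over its start and lay 1187 kb from RNF2. CBLB, which encodes a ubiquitin ligase of immune signalling, had 5.02 over its start with RNF2 418 kb away.

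Among the other regions of highest fold at starts were TM2D1 (5.31, 79 bp from the start) and BCDIN3D (5.08, over the start), a gene of an RNA methyltransferase. UPK2, a urothelial membrane protein gene, had 4.99 over a gene end of unknown strand. NUCB1 had 4.95 over its start, and its region also lay 1178 bp from TULP2. RIPK1, a kinase gene of cell death signalling, had 4.86 over its start with RNF2 4.0 kb from the region and, at another of its starts, within 2 kb. RNF2 thus lay 4.0 kb to 1187 kb from these 12 regions, and none of the 12 was wider than 792 bp.

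Away from starts the highest fold, 5.94, was in the gene body of ESPN, an actin-bundling protein of hair cells (chromosome 1, 6440573 to 6440805), with RNF2 5.77 kb away. The next were outside protein-coding genes, nearest to UBAC1 (5.30, 29.2 kb from its start), PRR5 (5.26, 48.1 kb), STK38L (5.18, 17.7 kb), HMGN4 (5.12, 4.78 kb) and CDH6 (5.04, 31.5 kb). Their widths were 233 to 858 bp. Over all regions the median folds were 3.6 at starts, 3.54 in gene bodies and 3.56 elsewhere.

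The 5 widest regions were 1886 to 2079 bp and of ordinary fold. They lay in MAP3K11 (2079 bp, fold 3.57, RNF2 0.816 kb away), AATK (2035 bp, 3.58), at ZNF500 (1940 bp, 3.82), in PLCH2 (1903 bp, 3.44) and in PALD1 (1886 bp, 3.52). The region in AATK, a kinase gene of the nervous system on chromosome 17 (81125748 to 81127782), also covered the microRNA genes MIR338 and MIR3065. Of all RING1-only regions, 2 met microRNA genes (0.0894%, against 0.695% of all merged regions) and 4 a transfer RNA gene (0.179% against 0.574%). None met small nuclear or nucleolar RNA genes, but only 0.131% and 0.0907% of all merged regions did, so this is no result. RING1-only regions were also narrower than merged regions as a whole (median 341 against 919 bp) and had less room to meet any of these genes.

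The 5 regions farthest from RNF2 lay on 3 chromosomes. That of CDH18 (chromosome 5, 19988034 to 19988263, fold 4.36) lay over its start, 2770 kb from RNF2. Next came 2 regions on chromosome 15 near LOC124903442 (folds 3.43 and 3.45, 2481 and 2445 kb), 1 between genes on chromosome 5 nearest to CDH10 (3.67, 2201 kb) and 1 on chromosome 18 nearest to PIK3C3 (3.61, 1994 kb). CDH18 was the only 1 of these 5 at a start, and 18 regions in all had no RNF2 peak within 1 Mb.

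Gene bodies with several RING1-only regions were few. Of 20037 protein-coding genes, 1283 had at least 1 in the body, 104 had 2 or more and 9 had 3 or more. Body here means the whole gene, so regions at starts count too, unlike in the gene body class above. The same counts for other region classes are not given here. GSE1, a long coregulator gene on chromosome 16 (507 kb), held 7 with folds of 3.20 to 4.28, among 17 RING1 and 14 RNF2 peaks of set A in all. CACNA1C, a calcium channel gene (727 kb), held 3, as did RAD51B, a recombination repair gene (863 kb), PRDM16 (369 kb), a regulator of radial glia, and BACH2 (370 kb). These genes were picked after their counts were seen, and gene length was not accounted for.

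Gene groups tied to Polycomb or to the neural lineage are small, and their counts are read against 3.55% of all protein-coding genes, a share at which few or no hits in a group of this size are no result about it. None of 60 homeobox genes, 14 core and canonical PRC1 genes, 21 PRC2 and H2A deubiquitinase genes or 40 neuronal differentiation genes had one. RNF2 of either set was at the start of 98.3%, 85.7%, 81.0% and 85.0% of these groups in that order, and a region that meets RNF2 cannot be RING1-only. Of 22 variant PRC1 genes, FBRSL1 alone did (4.55% of the group, fold 3.53, 1411 bp downstream of a start, with RNF2 1.40 kb from the region). Of 40 neural progenitor identity genes, 2 did (5.00%): CDH2, the N-cadherin gene (4.06, 611 bp upstream, 26 bp from RNF2), and MSI2, an RNA-binding regulator of progenitors (3.6, 170 bp downstream, RNF2 29.0 kb away).

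Genes of DNA double-strand break repair (the study's title names DNA damage repair) had a RING1-only region at 0 of 58 starts, and RNF2 at 87.9% of them. Replication-dependent histone genes had 0 of 73, and olfactory receptor genes 0 of 392, of which 0.510% had RNF2. Cytosolic ribosomal protein genes had 2 of 88 (2.27%), among them RPL19 (3.80, 1727 bp downstream, with RNF2 in the window). Housekeeping genes had 1 of 39 (2.56%), PSMD4, a proteasome subunit gene (3.27, over a gene end of unknown strand). Germline genes, which PRC1.6 is known to silence, had 1 of 40 (2.50%): HORMAD1 (4.48), whose region on chromosome 1 (150697176 to 150697452) lay 22 bp from the start of its neighbour GOLPH3L and 608 bp from HORMAD1.

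Zinc finger genes of chromosome 19 had a RING1-only region at 8 of 250 starts (3.20%), close to the share of all genes, and none of the 8 had an RNF2 peak in the window. Of all 711 genes with a RING1-only region, 37.6% had one. The rule removes regions that meet RNF2, so its absence at these 8 is no result about the group. ZNF554 (4.38) and ZNF347 (4.11) had the RING1-only region over the start and ZNF274 (4.04) 11 bp downstream. ZNF816 and the readthrough gene ZNF816-ZNF321P share 1 region (3.21), so the 8 genes rest on 7 regions. RNF2 was at the start of 59.6% of the 250, and regions of both antibodies in set A only were at 26.4%. Across all 13 groups, 15 entries were found, and no group exceeded 5.00%.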

How the data were processed

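CUT&RUN peak lists of wild-type neural progenitor cells were analysed, 2 with a RING1 and 2 with an RNF2 antibody. Per the submitters' processing notes, the authors used MACS2 2.2.9.1, BWA 0.7.17, deepTools 3.5.2, Picard 2.8.1, SAMtools 1.9 and bedtools 2.30.0 with the hg38 build. Each deposited list gives the authors' fold enrichment and −log10 q per peak, as MACS2 broad peak files hold them. The control sample, the calling threshold and the read depth were not given in the sources used here. Weak and missing peaks therefore cannot be weighed by depth. How the consolidated file was made is also not given.

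Overlapping or touching peaks of chromosomes 1 to 22, X and Y were merged, and regions, distances (edge to edge), gene starts, promoter CpGs and motifs were computed in Python 3.11.15 with numpy 2.4.6, pandas 2.3.3 and SciPy 1.17.1. The steps were tested on simulated data. RefSeq gave starts with strand for 15842 protein-coding genes and gene ends for 4195 others. Regions are not replicates, so no test was made. Named were the 12 regions of highest fold within 2 kb of a start, the 6 highest elsewhere, the 5 widest, the 5 farthest from and the 5 nearest to RNF2, the 5 RING1 peaks that overlapped RNF2 least, and up to 3 genes per list, of which 1 is not reported here. Genes in addition to these (GOLPH3L, the copies of FAM72A and SRGAP2, the ZNF816 pair and genes with several regions in the body) were chosen after their values were seen. The members and gene lists were chosen with earlier results of these data known. Alternatives changed the q threshold, the overlap, the merging distance, the chromosomes, the window and the set of lists.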

Additional observations from a re-analysis of the deposited data

How the results depend on the processing

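As a yardstick, a value counted as moved when it left its 95% interval (shares and medians) or changed by over 1.5 times (counts), and 27 of 52 alternative values moved. That interval covers only counting over the 2238 regions of 1 list as if they were independent, not replicate error, so it is no test. With a −log10 q of 5 or more required in all 4 lists, 214 regions were RING1-only, of which 4 were among the 2238, since RNF2 peaks were removed too. Of these, 82.7% lay at starts (205 genes), with medians of 614 bp, fold 5.71 and 99.3 kb to RNF2. With 2 or more required in the RING1 list of set A alone, 561 regions remained, 38.5% at starts (233 genes), with fold 4.0 and 26.5 kb. Requiring an overlap of 50% of the shorter peak gave 34.1% at starts, 359 bp and 14.9 kb. Merging within 1 kb gave 26.1% and 29.3 kb, and within 5 kb 26.8%, fold 3.58 and 38.8 kb. Windows of 1 and 5 kb gave 24.9% and 37.4% at starts. Using only the lists of set A or only those of set B gave 62 (B) to 2312 (A) regions, 21.0% to 30.8% at starts, 342 to 526 bp, fold 3.56 to 4.30, 24.9 to 30.7 kb and 13 to 773 genes, so the number rests on set A. The share at starts was below the 57.0% of all merged regions under each alternative but the strictest, against that fixed figure. No paired analysis was possible because the results come from no test and the file numbers are tied to no replicate number of the labels. The values for each set alone, above, are those within 1 RING1 and RNF2 pair of lists.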
